A study of Oryza sativa with 12 samples.

Results

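The regions described are H2A.Z and H3 peaks of rice seedlings that lie within 2 Mb of a chromosome end. Peaks of the 4 libraries of each antibody were merged into regions, and a region was taken as distal when its midpoint lay in the last 2 Mb of any of the 12 chromosomes or in the first 2 Mb of chromosomes 1, 2, 3, 5, 6, 7 and 8. The end of a chromosome was the greatest peak coordinate over all 8 ChIP libraries. The 19 ends span 38 Mb, which is 10.2% of the length of the 12 chromosomes. They hold 14261 of 127924 merged regions, of which 6943 of 53017 were H2A.Z regions and 7318 of 74907 were H3 regions. The starts of the other 5 chromosomes were counted with the rest of the chromosomes. At the 2 Mb limit, the innermost region of an end lay 1904699 to 1999999 bp from it, and the nearest region outside lay at 2000099 to 2016499 bp.

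Chromatin was taken from 30-day-old seedlings of the oschz1 mutant and of NIP, the unmutated cultivar Nipponbare. The mutant came from CRISPR/Cas9 mutagenesis of OsChz1, and the study's text names oschz1-1 as the allele of its H2A.Z libraries, whereas the sample labels name none. Each genotype has 2 libraries with anti-H2A.Z (Abmart, by the labels), 2 with anti-H3 (ab1791, Abcam) and 2 inputs without antibody, 12 samples in all. The labels do not say whether the replicates were separate cultures, so p-values measure only the spread between these samples. Whole seedlings were used, and a change in every cell cannot be told apart from a change in some cell types.

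H2A.Z is a variant of histone H2A that replaces it in a subset of nucleosomes, in plants mostly at the beginning of genes and over genes of low or regulated activity. Histone chaperones carry histones that are not in nucleosomes, and OsChz1 is a rice chaperone with a CHZ domain. This domain is named after yeast Chz1, a chaperone of dimers of H2A.Z and H2B. In the study OsChz1 bound dimers of H2B with the usual H2A as well as with H2A.Z, without a preference for H2A.Z. H3 is a core histone of every nucleosome, so that its signal serves as a measure of nucleosome content. The arms of rice chromosomes are rich in genes, whereas the regions around the centromeres are rich in transposable elements.

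With anti-H2A.Z, 20072324 and 18569241 reads lay in peaks in oschz1, against 22192417 and 16886473 in NIP. With anti-H3 there were 14466571 and 9179714 reads in oschz1, against 13961812 and 9985812 in NIP. The authors called peaks per library without pooling, and a count covers only the bases of that library's own peaks. Distal regions with a peak in all 4 libraries had a median of 76 input reads for H2A.Z and 63 for H3. Gene annotation was not used here, and regions are given by their position on the MSU rice genome, counted from 1.

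The first question was whether peaks are arranged differently near the ends. The distal ends carried more and longer H2A.Z peaks than the rest of the chromosomes. The density was 172.5 and 172 peaks per Mb in the oschz1 libraries and 177 and 172 peaks per Mb in the NIP libraries at distal ends. In the rest it was 126 and 126 peaks per Mb in oschz1 and 129 and 124 in NIP. Each of the 4 libraries was thus denser at the ends, by 1.36-fold to 1.39-fold (mean 1.37-fold, exact two-sided sign-flip test over 4 libraries, p = 0.125, the smallest this test can give). The ends held 13.4% and 13.4% of the H2A.Z peaks on the 12 chromosomes in oschz1 and 13.5% and 13.6% in NIP.

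Distal H2A.Z peaks had a mean width of 1555 and 1544 bp in oschz1 and 1449 and 1445 bp in NIP. Peaks of the rest had 1394 and 1377 bp in oschz1 and 1315 and 1316 bp in NIP. Distal peaks were longer in 4 of 4 libraries, by 1.10-fold to 1.12-fold (exact sign-flip p = 0.125). Peaks of at least 4 kb made up 4.87% and 5.05% of distal peaks in oschz1 and 4.08% and 3.88% in NIP, against 3.67% and 3.53% of peaks in the rest in oschz1 and 3.06% and 2.91% in NIP. With both more and longer peaks, H2A.Z covered 26.8% and 26.6% of the distal sequence in oschz1 and 25.7% and 24.8% in NIP. In the rest it covered 17.6% and 17.4% in oschz1 and 16.9% and 16.3% in NIP, so that the distal share was 1.52-fold to 1.53-fold that of the rest in the 4 libraries (exact sign-flip p = 0.125).

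The higher density was not particular to the last 2 Mb. In the adjoining 2 to 4 Mb from the same 19 ends, H2A.Z density was 176 and 176 peaks per Mb in oschz1 and 181 and 175 in NIP. The distal ends had 0.975-fold to 0.983-fold this density, lower in 4 of 4 libraries (exact sign-flip p = 0.125). Width differed from that pattern. Distal peaks were 1.04-fold to 1.06-fold as long as those of the adjoining stretch in 4 of 4 libraries (exact sign-flip p = 0.125), which had 1485 and 1461 bp in oschz1 and 1390 and 1382 bp in NIP.

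**Figure D1:**
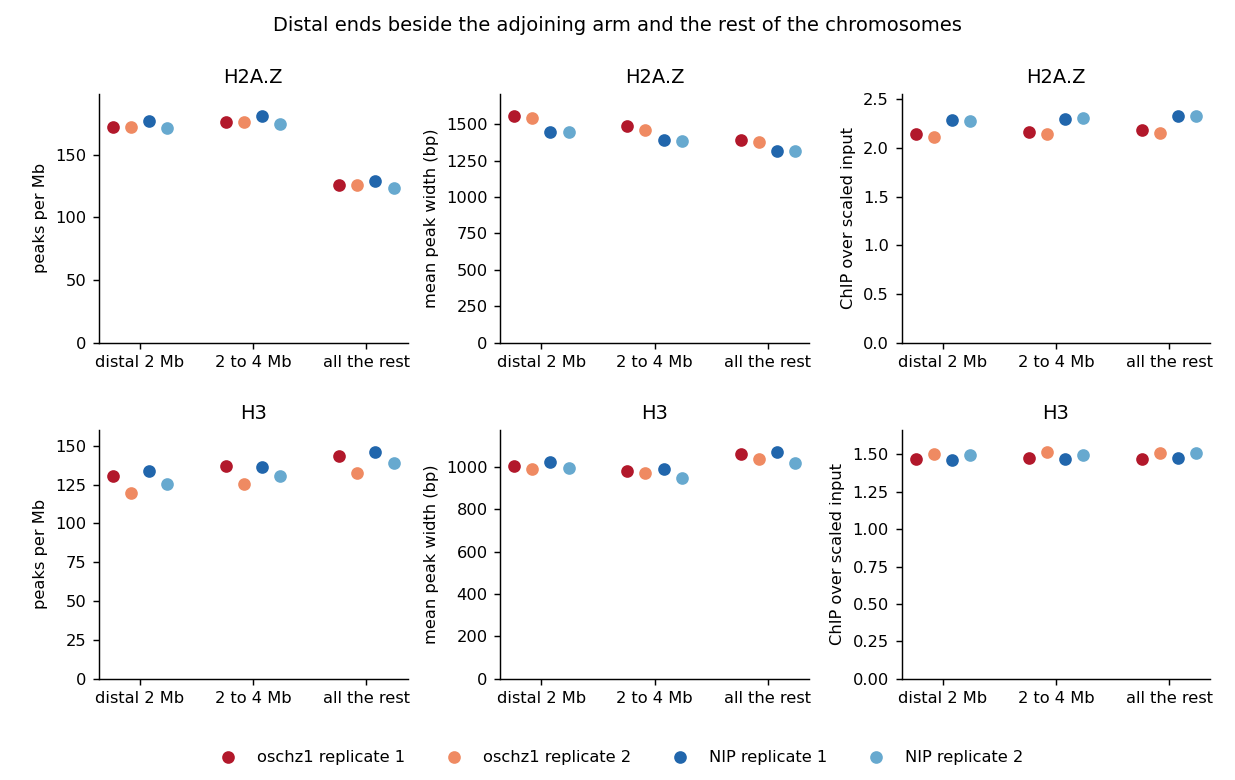
Peak density, mean peak width and ChIP over scaled input (vertical axes, from 0) of H2A.Z (top) and H3 (bottom) at the distal 2 Mb, in the adjoining 2 to 4 Mb and in all the rest of the 12 chromosomes, with 1 point for each library. H2A.Z density was 172 to 177 peaks per Mb at distal ends and 175 to 181 in the adjoining stretch, against 124 to 129 in all the rest.

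Enrichment was the sum of ChIP reads over the sum of input reads, scaled by library size, across regions with a peak in all 4 libraries. For H2A.Z it was 2.14 and 2.12 at distal ends in oschz1 and 2.28 and 2.28 in NIP. In the rest it was 2.18 and 2.15 in oschz1 and 2.33 and 2.32 in NIP. The distal ends were thus slightly lower in 4 of 4 libraries, at 0.979-fold to 0.982-fold the rest (exact sign-flip p = 0.125). The input itself differed by less, with 0.990-fold to 0.995-fold as many input reads per kb of H2A.Z peak at distal ends as in the rest. Against the adjoining stretch this was otherwise, with an enrichment of 0.986-fold to 0.992-fold and input reads per kb of 1.01-fold to 1.02-fold. The part of the input in these differences was not tested. Single regions varied more than these means, and the middle 50% of the 5056 distal H2A.Z regions with a peak in all 4 libraries lay between 1.82 and 2.51.

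Within the distal 2 Mb, H2A.Z was not spread evenly. Along bins of 250 kb, its mean density was lowest in the outermost bin, with 136 peaks per Mb in oschz1 and 136 in NIP. It was highest in the bin from 1 to 1.25 Mb, with 195 peaks per Mb in oschz1 and 199 in NIP. This gradient was noticed in these data and is given without a test. Per library, the outermost 250 kb had 135 and 137 peaks per Mb in oschz1 and 141 and 131 in NIP, against 178 and 177 in oschz1 and 182 and 177 in NIP in the following 1.75 Mb. The outermost bin was lower in all 4 libraries at 17 of the 19 ends. The exceptions were the ends of chromosomes 11 and 12, where it was higher in all 4. The difference was widest at the end of chromosome 5, with 44 and 40 peaks per Mb in oschz1 and 44 and 36 in NIP, against 202 and 200 in oschz1 and 206 and 205 in NIP further in. Width followed no such gradient, since peaks of the outermost bin averaged 1532 and 1512 bp in oschz1 and 1418 and 1472 bp in NIP.

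**Figure D2:**
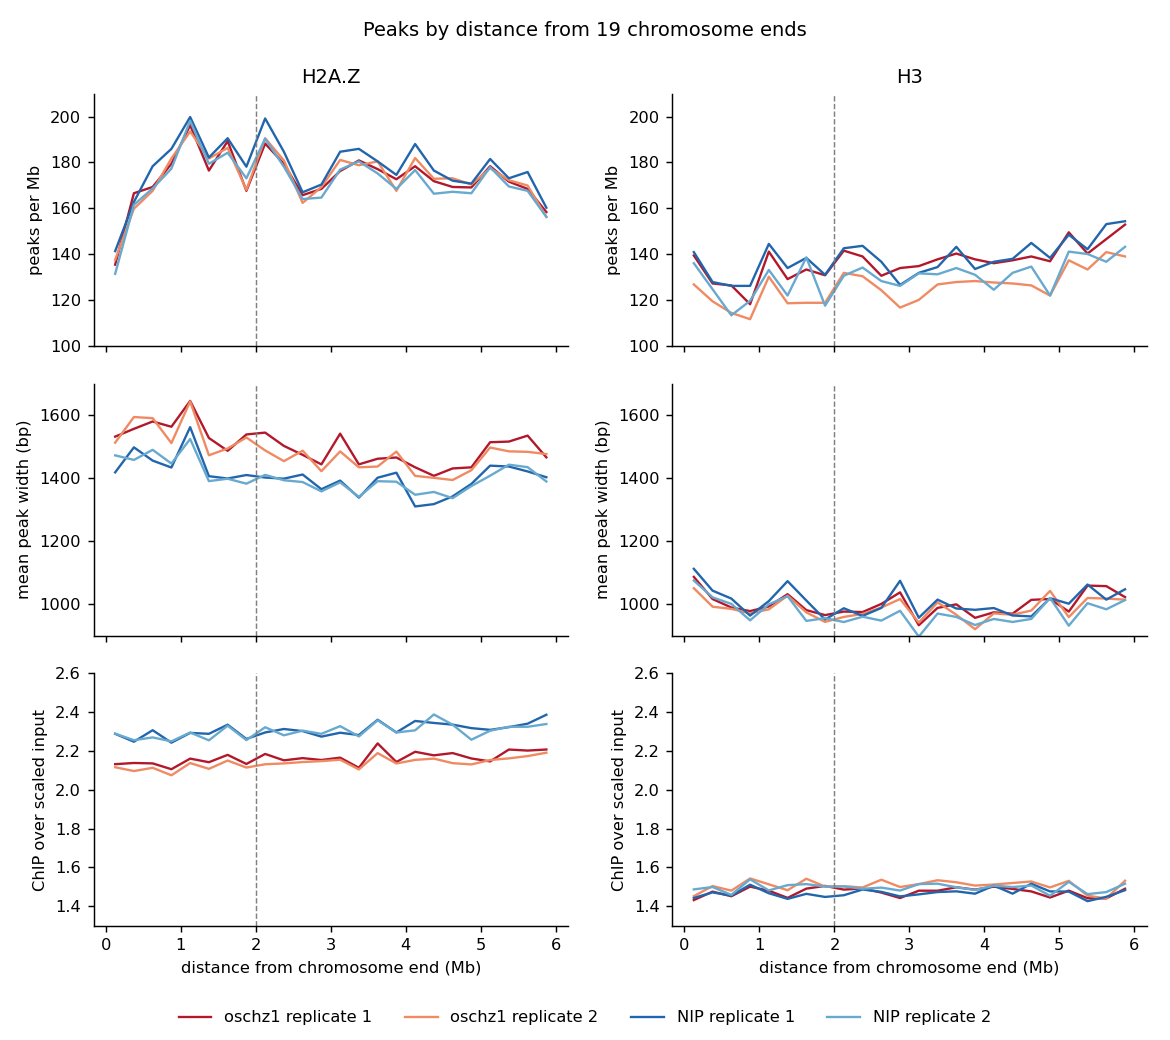
Peak density, mean peak width and ChIP over scaled input (vertical axes, which do not start at 0) of H2A.Z (left) and H3 (right) in 250 kb bins by distance from the 19 ends, with 1 line for each library and a dashed line at 2 Mb. The outermost bin had the lowest mean H2A.Z density, 136 peaks per Mb in both genotypes, and the oschz1 lines lay above the NIP lines in H2A.Z width and below them in H2A.Z enrichment along the whole 6 Mb.

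H3 peaks were arranged otherwise. Their density at distal ends was 131 and 120 peaks per Mb in oschz1 and 134 and 126 in NIP, against 143 and 133 in the rest in oschz1 and 146 and 139 in NIP. Every library had fewer H3 peaks per Mb at the ends, at 0.904-fold to 0.916-fold the rest (exact sign-flip p = 0.125, 4 of 4 libraries). They were also fewer than in the adjoining 2 to 4 Mb, at 0.953-fold to 0.978-fold (exact sign-flip p = 0.125). Distal H3 peaks were 1006 and 991 bp long in oschz1 and 1024 and 997 bp in NIP, against 1061 and 1036 bp in the rest in oschz1 and 1070 and 1021 bp in NIP. The width ratio of 0.948-fold to 0.976-fold to the rest turned round against the adjoining stretch, where it was 1.02-fold to 1.05-fold. Very long H3 peaks were rare at the ends, with 0.725% and 0.615% of peaks at 4 kb or more in oschz1 and 0.670% and 0.566% in NIP, against 1.50% and 1.25% in the rest in oschz1 and 1.52% and 1.31% in NIP.

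H3 enrichment hardly differed by location. It was 1.47 and 1.50 at distal ends in oschz1 and 1.46 and 1.50 in NIP, and 1.47 and 1.51 in the rest in oschz1 and 1.47 and 1.51 in NIP (0.991-fold to 1.0-fold, exact sign-flip p = 0.25). Input reads per kb of H3 peak differed more, at 1.04-fold to 1.05-fold the rest in the 4 libraries. In the outermost 250 kb, H3 density was 139 and 127 peaks per Mb in oschz1 and 141 and 136 in NIP, above the 129 and 119 of oschz1 and the 133 and 124 of NIP in the following 1.75 Mb. This was the reverse of the H2A.Z gradient. Over these 250 kb, H3 was higher than further in at 7 ends and lower at 3 ends in all 4 libraries.

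The last peak before the chromosome end was more often an H3 peak than an H2A.Z peak. At several ends neither was nearer in all 4 library pairs. Where chromosomes end, the end was set by the outermost peak of the 8 libraries, so that at least 1 peak lies at 0 bp there, and the distances are a description. The median distance from the end to the nearest peak edge was 7000 bp for H2A.Z and 1100 bp for H3 over the 19 ends. An H3 peak lay nearer to the end than any H2A.Z peak in all 4 library pairs at 10 ends, and the opposite held at 1 end, that of chromosome 10. Over the 7 chromosome starts, which no peak set, the medians were 19600 bp for H2A.Z and 1200 bp for H3, and H3 was nearer in all 4 pairs at 5 of them. At the end of chromosome 5 the nearest H2A.Z peak was 132200 bp away in each of the 4 H2A.Z libraries, whereas H3 peaks began at 0 bp in both oschz1 libraries and at 37600 and 36000 bp in the NIP libraries. At the end of chromosome 4 the outermost peaks of all 8 libraries reached the same last base. Reads of low mapping quality were removed by the authors, and the part of repeated sequence in these distances was not tested.

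As H2A.Z was denser and H3 sparser, the balance of covered length differed at the ends. The bases covered by H2A.Z peaks were 2.04-fold and 2.24-fold those covered by H3 peaks in oschz1 and 1.88-fold and 1.98-fold in NIP. In the rest of the chromosomes they were 1.16-fold and 1.26-fold in oschz1 and 1.08-fold and 1.15-fold in NIP. The adjoining stretch had 1.94-fold and 2.11-fold in oschz1 and 1.85-fold and 1.95-fold in NIP. Of the distal H2A.Z bases, 29.3% and 26.4% also lay under an H3 peak in oschz1 and 32.3% and 30.0% in NIP. In the rest these shares were 33.4% and 30.6% in oschz1 and 35.7% and 33.1% in NIP. The overlap was lower at the ends in 4 of 4 libraries (0.861-fold to 0.907-fold, exact sign-flip p = 0.125), but not in every library against the adjoining stretch (0.930-fold to 1.01-fold, exact sign-flip p = 0.25).

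The second question was whether loss of OsChz1 changed H2A.Z at the ends. Distal H2A.Z enrichment was lower in oschz1, 2.13 ± 0.0192 against 2.28 ± 0.00565 in NIP (SD, n = 2 each), a difference of -6.64%. The genotypes did not overlap, and the exact two-sided permutation p was 0.333, the smallest that 2 against 2 libraries allow, so that no such comparison can pass 0.05. In the rest the difference was -6.78%. The effect of genotype on enrichment at distal ends minus that in the rest was 0.0021 on the log2 scale (exact permutation p = 0.333), and its sign turned under several alternatives. Over the 808 distal H2A.Z regions of the same extent in all 4 libraries, enrichment was 2.28 and 2.24 in oschz1 and 2.44 and 2.46 in NIP, a difference of -7.67%, against -7.58% over 6295 such regions in the rest.

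Peaks were at the same time longer in oschz1. The mean width of distal H2A.Z peaks exceeded that in NIP by 102 bp or 7.08% (1549 ± 7.75 bp in oschz1 and 1447 ± 2.96 bp in NIP, SD, n = 2 each, exact permutation p = 0.333). In the rest the excess was 69.8 bp or 5.30%. The distal peaks of oschz1 were 1.11-fold and 1.12-fold as long as those of the rest, and those of NIP 1.10-fold and 1.10-fold, without overlap between the genotypes (difference 0.02 on the log2 scale, exact permutation p = 0.333). The widths were multiples of 200 bp, and the median width of distal peaks differed by 0 bp between the genotypes. Covered length was higher in oschz1 by 1.44 percentage points at distal ends (exact permutation p = 0.333), whereas density, 172 ± 0.354 peaks per Mb in oschz1 and 175 ± 4.0 in NIP (SD, n = 2 each), overlapped between the genotypes. Over peaks with a fold of at least 2 alone, density was lower in oschz1 without overlap, a difference of -11.4 peaks per Mb, and covered length was instead lower in oschz1, a difference of -1.04 percentage points (exact permutation p = 0.333 for both). The fold is each library's own ChIP over input, and distal H2A.Z enrichment was lower in oschz1. Neither difference is thus independent of that in enrichment.

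H3 enrichment, density and width overlapped between the genotypes at the ends. In both genotypes, replicate 2 had fewer H3 reads in peaks and fewer distal H3 peaks than replicate 1. By replicate number, density was lower in oschz1, at 131 against 134 and 120 against 126 peaks per Mb. Width was lower too, at 1006 against 1024 and 991 against 997 bp, whereas enrichment was slightly higher. Differences by replicate number were not tested for these values. Enrichment was 1.49 ± 0.0212 in oschz1 and 1.48 ± 0.0260 in NIP (exact permutation p = 0.667). Density was 125 ± 7.69 peaks per Mb in oschz1 and 130 ± 5.66 in NIP (SD, n = 2 each, exact permutation p = 0.667). With stricter peaks some of these values no longer overlapped. Over H3 peaks with q of at most 1e-10, mean width differed by -62.7 bp in oschz1 against NIP, and over those with a fold of at least 2 density differed by 2.63 peaks per Mb, width by 37.3 bp and covered length by 0.228 percentage points (exact permutation p = 0.333 for each). Where all 8 libraries had a peak, H2A.Z enrichment over H3 enrichment at distal ends came to 1.65 and 1.61 in oschz1 and 1.78 and 1.76 in NIP. This was a difference of -0.142 or -8.05% (exact permutation p = 0.333), against -8.67% in the rest. Restricted to peaks with a fold of 2 or more, it came to -0.00736 at the ends, and the genotypes overlapped (exact permutation p = 1). The H2A.Z and H3 libraries of 1 genotype and replicate number shared their input.

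The 19 ends were then compared with each other. H2A.Z density was lowest at the end of chromosome 11, with 136 and 141 peaks per Mb in oschz1 and 133 and 126.5 in NIP. It was highest at the end of chromosome 9, with 224.5 and 218 peaks per Mb in oschz1 and 230 and 223.5 in NIP. As a mean of 4 libraries, every one of the 19 ends lay above 130.5 peaks per Mb, the median of the other 169 windows of 2 Mb, whose values ran from 32.1 to 216. The end of chromosome 4 came next to that of chromosome 9, with 205.5 and 205.5 peaks per Mb in oschz1 and 213.5 and 209 in NIP, and did not overlap it. Most neighbours in the order did not differ beyond their spread. The end of chromosome 10, with 197 and 188.5 peaks per Mb in oschz1 and 202.5 and 196 in NIP, overlapped the start of chromosome 3, with 191.5 and 190.5 in oschz1 and 204 and 197.5 in NIP. For H3 the picture was turned round, since none of the 19 ends exceeded, as a mean of 4 libraries, 141 peaks per Mb, the median of the other windows. The lowest H3 density was at the end of chromosome 6, with 97 and 85 peaks per Mb in oschz1 and 97.5 and 95 in NIP, where H2A.Z density was 148 and 145 in oschz1 and 145.5 and 142.5 in NIP.

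H2A.Z peaks were longest at the start of chromosome 3, at 1768 and 1741 bp in oschz1 and 1604 and 1630 bp in NIP. They were shortest at the end of chromosome 11, at 1371 and 1365 bp in oschz1 and 1289 and 1280 bp in NIP. The start of chromosome 3 and the ends of chromosomes 4 and 9 were the most covered, with 33.9% and 33.2%, 33.9% and 33.6%, and 35.0% and 34.6% of bases in oschz1, against 32.7% and 32.2%, 32.8% and 31.5%, and 34.2% and 33.0% in NIP. Enrichment ranked the ends in another order. The end of chromosome 12 was highest, with 2.24 and 2.22 in oschz1 and 2.39 and 2.43 in NIP. The end of chromosome 2 was lowest, with 2.04 and 2.03 in oschz1 and 2.20 and 2.18 in NIP.

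In enrichment, all 19 ends had both oschz1 libraries below both NIP libraries, and so did 99.5% of all 188 windows of 2 Mb. The differences of the ends ran from -8.44% to -5.11% with a median of -6.67%. Width was above NIP in both oschz1 libraries at each of the 19 ends, by 3.98% to 12.9%, and so it was in 87.2% of all windows. Covered length was higher in both oschz1 libraries at 18 ends, against 79.3% of all windows. The exception was the end of chromosome 10, with 31.4% and 30.4% in oschz1 and 31.2% and 29.9% in NIP. Density was lower in both oschz1 libraries at 9 ends, against 16.5% of all windows, and higher at 1 end, against 11.7% of windows. That end was chromosome 11, where the density was lowest. H3 enrichment was higher in both oschz1 libraries at 5 ends, against 10.6% of windows, and lower at none, against 5.32% of windows. H3 density was lower in both at 4 ends, against 23.9% of windows.

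**Figure D3:**
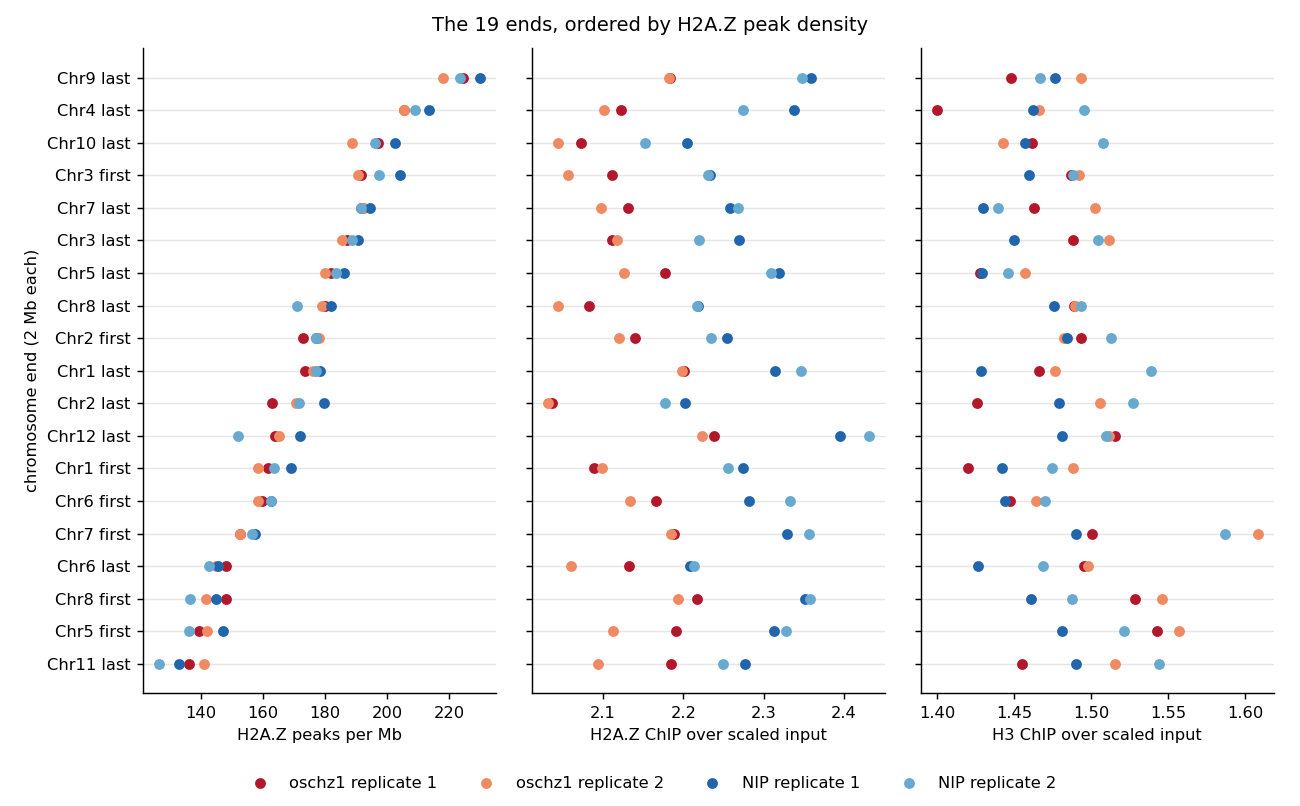
H2A.Z peak density, H2A.Z enrichment and H3 enrichment (horizontal axes, which do not start at 0) of the 19 chromosome ends, ordered by H2A.Z density, with 1 point for each library. The oschz1 points lay left of the NIP points in H2A.Z enrichment at all 19 ends, whereas density ran from 134 peaks per Mb at the end of chromosome 11 to 224 at the end of chromosome 9 as means of 4 libraries.

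Single regions were compared by their reads. Of the 6943 distal H2A.Z regions, 5056 had a peak in all 4 libraries (72.8%, against 71.8% of the regions in the rest). Of the 7318 distal H3 regions only 2242 had (30.6%, against 33.9%), and 1943 were found in 1 library. Peaks of both oschz1 libraries and neither NIP library formed 124 distal H2A.Z regions (1.79%, against 2.29% of all H2A.Z regions), and peaks of both NIP libraries and neither oschz1 library formed 95 (1.37%, against 1.64%). For H3 these were 298 regions (4.07%, against 3.9% of all H3 regions) and 303 regions (4.14%, against 4.38%).

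In the quasi-likelihood test of edgeR with Benjamini-Hochberg adjustment over all 38145 regions, 41 of the 5056 distal H2A.Z regions had more reads in oschz1, against 0.731% of all tested regions, and 4 had fewer, against 0.076%. The share of distal regions called was 0.811% and 0.0791%, near that of all regions. At an unadjusted p under 0.05, 341 had more (6.74%, against 5.87% of all regions) and 324 had fewer (6.41%, against 6.49%). The median log2 change over the 5056 regions was -0.02. For H3, 0 of 2242 distal regions passed in either direction (0% of all regions higher and 0% lower), with 133 higher (5.93%, against 6.1% of all regions) and 47 lower (2.10%, against 2.05%) at an unadjusted p under 0.05. DESeq2 called 10 distal H3 regions higher (0.446%, against 0.389% of all) and 6 lower (0.268%, against 0.302%). By DESeq2 the H2A.Z counts were 106 higher (2.10%, against 1.86% of all) and 13 lower (0.257%, against 0.309%). When a peak in at least 2 libraries sufficed, they were 0 in either direction, as over all 48071 such regions. The H2A.Z counts thus depend on the settings, and they also moved when 1 library was left out.

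The regions with more reads were regions covered over a greater length. In 38 of the 41, peaks of each oschz1 library covered more bases than those of either NIP library, which held for 11.3% of all tested regions and 649 of the 5056 distal ones. Their median log2 change was 1.02 in reads and 1.06 in covered bases, but -0.04 in enrichment. Reads were counted only within each library's own peaks, so a longer peak adds reads by itself. The enrichments likewise cover unlike stretches in the libraries, and the part of this in the calls was not tested. All 4 regions with fewer reads were covered over less in both oschz1 libraries, which held for 5.06% of all regions and 267 of the distal ones. The 41 regions lay at 17 of the 19 ends, with at most 5 at any end. In enrichment, 1383 distal regions had both oschz1 libraries below both NIP libraries (27.4%, against 26.6% of all), and 563 had both above (11.1%, against 11% of all). For H3 the counts were 381 below (17.0%, against 17.9% of all) and 392 above (17.5%, against 17.4% of all), about the same in either direction.

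**Figure D4:**
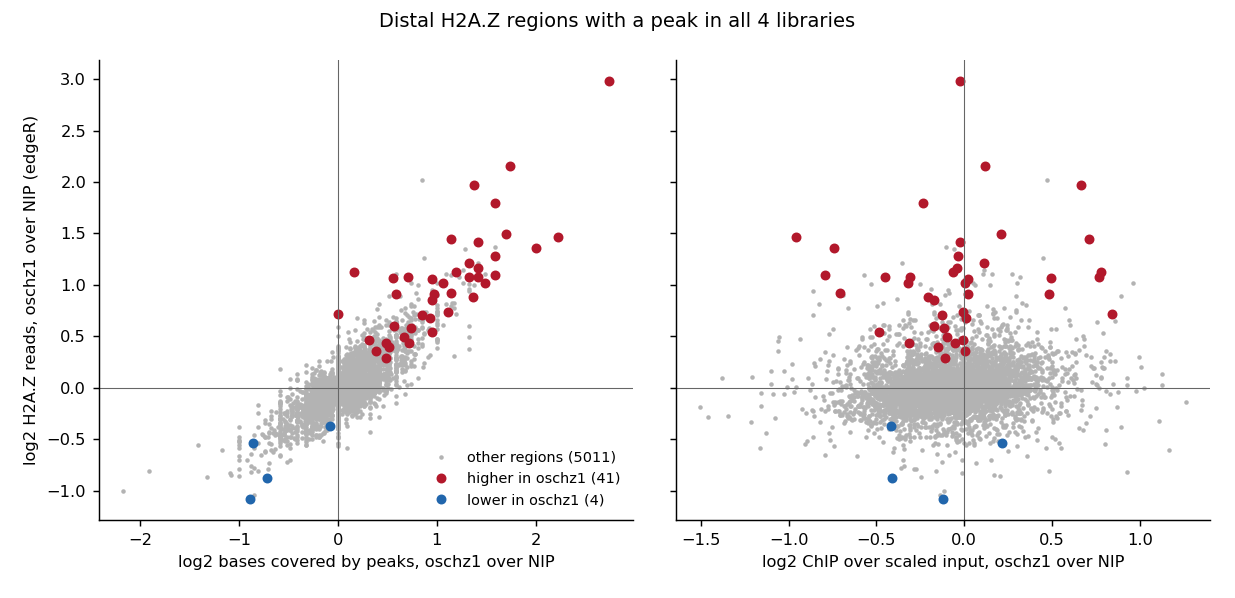
Log2 change in H2A.Z reads between oschz1 and NIP (vertical axis, edgeR) of the 5056 distal H2A.Z regions with a peak in all 4 libraries, against the log2 change in covered bases (left) and in enrichment (right). The 41 regions higher in oschz1 had a median log2 change of 1.06 in covered bases and of -0.04 in enrichment, and 4 regions were lower. Reads and enrichment were taken within each library's own peaks, so that neither is independent of covered bases.

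The largest rise was at Chr2:35497201-35501400, centred 433699 bp from the end of chromosome 2. It had 873 and 802 reads over 4000 and 4000 covered bp in the oschz1 libraries, against 116 and 97 reads over 600 and 600 bp in the NIP libraries. The log2 change was 2.99 (SE 0.11, edgeR adjusted p = 8.72e-05). Enrichment was 1.80 and 1.99 in oschz1 and 1.49 and 2.50 in NIP, which overlapped. These values cover 4000 bp in each oschz1 library but 600 bp in each NIP library, and enrichment over the same bases was not measured. Chr11:27080601-27082600 had 790 and 621 reads over 2000 and 2000 bp in oschz1, against 172 and 146 reads over 600 and 600 bp in NIP (log2 change 2.16, SE 0.13, edgeR adjusted p = 0.000542).

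At the start of chromosome 7, 2 rises lay 75 kb apart. Chr7:1743201-1745800 had 948 and 854 reads over 2600 and 2600 bp in oschz1, against 292 and 176 reads over 1200 and 800 bp in NIP (log2 change 1.97, SE 0.12, edgeR adjusted p = 0.000518). This region was also more enriched in oschz1, at 1.79 and 2.01, against 1.12 and 1.28 in NIP. Chr7:1666001-1668200 had 394 and 349 reads in oschz1, against 138 and 81 in NIP (log2 change 1.79, SE 0.18, edgeR adjusted p = 0.00512), but its enrichment overlapped, with 1.34 and 1.13 in oschz1 and 1.25 and 1.68 in NIP.

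At the start of chromosome 2 a rise and a fall lay only 9.6 kb apart. Chr2:1572201-1573600 had 269 and 211 reads in oschz1, against 106 and 67 in NIP (log2 change 1.50, SE 0.20, edgeR adjusted p = 0.0195). Chr2:1583201-1585800 had 249 and 242 reads over 1400 and 1400 bp in oschz1, against 482 and 422 reads over 2000 and 2600 bp in NIP (log2 change -0.87, SE 0.13, edgeR adjusted p = 0.0287). The other 3 falls were Chr3:35829401-35831000 (log2 change -1.09, edgeR adjusted p = 0.0496) and a pair 37.4 kb apart near the end of chromosome 4. Of that pair, Chr4:34571401-34575000 had 948 and 853 reads in oschz1, against 1355 and 1006 in NIP (log2 change -0.37, SE 0.06, edgeR adjusted p = 0.0378). It was almost equally covered, over 3400 and 3400 bp in oschz1 and 3600 and 3600 bp in NIP, and its enrichment was 1.98 and 1.84 in oschz1, against 2.55 and 2.55 in NIP. In Chr4:34612401-34614400 the reads fell by 0.54 on the log2 scale (edgeR adjusted p = 0.043), yet enrichment over its shorter peaks was 2.89 and 2.70 in oschz1, against 2.42 and 2.39 in NIP. Of the 9 regions named here by their reads, 5 lost the call without oschz1 replicate 1, 4 without oschz1 replicate 2, 3 without NIP replicate 1 and 5 without NIP replicate 2.

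The following counts use subsets of regions chosen for a like extent in all 4 libraries, so that covered length was alike there by choice. No region was measured again over a fixed extent. Among the 808 distal H2A.Z regions that began and ended alike in the 4 libraries, reads were lower in oschz1 in 36 and higher in 5 (edgeR, against 4% and 0.352% of all 7107 such regions). With at least 80% of the region shared, 57 of 2232 distal regions were lower (2.55%, against 2.72% of all such regions) and 20 were higher (0.896%, against 0.703%). For regions of the same extent, with the library size recovered from the fold column and the input, 105 had fewer and 3 had more (against 12.2% and 0.295%). Of the 407 of these regions with at least 50 ChIP and input reads in every library, enrichment was below NIP in both oschz1 libraries in 134 (32.9%, against 32.1% of all 3142 such regions) and above in 36 (8.85%, against 8.31%). The largest fall in enrichment was at Chr8:27778001-27779200, with 2.44 and 2.43 in oschz1 and 3.78 and 3.90 in NIP. Its log2 change in reads was -0.33 (SE 0.07, edgeR adjusted p = 0.00238 with the recovered size, but 0.237 in the comparison of all regions). Chr7:29457801-29459400 followed with 2.26 and 2.11 in oschz1 and 2.94 and 3.97 in NIP. Its reads did not pass the test (log2 reads -0.22, edgeR adjusted p = 0.0522 with the recovered size and 0.549 in the comparison of all regions). Next was Chr8:27530201-27531400, with 1.64 and 1.57 in oschz1 and 2.79 and 2.27 in NIP. Its log2 change in reads was -0.35 (edgeR adjusted p = 0.00512 with the recovered size, but 0.320 in the comparison of all regions). Chr12:25687601-25689000 went the other way, with 567 and 461 reads in oschz1, against 356 and 274 in NIP over the same 1400 bp. The log2 change was 0.67 (SE 0.09, edgeR adjusted p = 3.73e-06 with the recovered size and 0.0403 in the comparison of all regions). Its enrichment was 2.96 and 1.84 in oschz1, against 1.26 and 1.34 in NIP, and an H3 peak overlapped it in all 4 H3 libraries.

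Some distal regions held fewer separate peaks in oschz1. In 94 distal H2A.Z regions each oschz1 library had fewer separate peaks than either NIP library (1.86%, against 1.2% of all 38145 regions), and in 38 both had more (0.752%, against 0.663%). This comparison, like the classes that follow, was chosen after values of these data were seen. The width classes used the merged region of all 4 libraries, so that longer peaks in 1 genotype can move a region to a longer class. The part of this in the covered bases was not tested. By width, distal regions shorter than 1 kb covered 1.71% more bases in oschz1, those of 1 to 2 kb 3.11% more, those of 2 to 4 kb 5.99% more and those of 4 kb or longer 5.03% more, as means over 873, 2056, 1587 and 540 regions. Their differences in enrichment were -5.30%, -6.64%, -7.43% and -5.85%. In the rest the same classes differed by 0.978%, 3.04%, 4.97% and 4.86% in covered bases and by -5.13%, -7.23%, -6.93% and -6.62% in enrichment. Regions of 4 kb or longer were more frequent at the ends, at 10.7% of regions with a peak in all 4 libraries, against 7.48% in the rest.

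The classes by H3 differed more in enrichment. In the 1429 distal H2A.Z regions that an H3 peak overlapped in all 4 H3 libraries, H2A.Z enrichment was 2.37 and 2.35 in oschz1, against 2.55 and 2.55 in NIP, a difference of -7.52%. In the 2429 distal regions with an H3 peak in 1 to 3 H3 libraries it was 2.07 and 2.03 in oschz1, against 2.21 and 2.19 in NIP, a difference of -6.67%. In the 1198 distal regions without any H3 peak it was 1.81 and 1.81 in oschz1, against 1.86 and 1.85 in NIP, a difference of -2.40%. In each class the oschz1 libraries were the lower ones without overlap. The classes also differed in covered bases, which were 3.06%, 5.11% and 6.86% more in oschz1 in the same order. The log2 ratio of the class without an H3 peak to that with one in all 4 H3 libraries was -0.39 and -0.37 in oschz1. In NIP it was -0.45 and -0.46, again without overlap (difference 0.08, exact permutation p = 0.333). The rest of the chromosomes had the same order, with -7.88%, -6.54% and -2.62% in enrichment and 2.66%, 3.89% and 7.11% in covered bases. Since H3 peaks were called against the inputs that H2A.Z peaks were called against, the classes are not independent of the input reads, and the part of this in the difference was not tested.

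The longest, the most enriched and the outermost regions were looked at by name. The longest distal H2A.Z region, Chr9:21598401-21613200, was covered over 13600 and 13600 bp in oschz1 and 12600 and 13200 bp in NIP, with 4083 and 3896 reads in oschz1 and 4300 and 3585 in NIP. The next was Chr1:1764801-1778200, with 12400 and 13000 bp in oschz1 and 13400 and 12400 bp in NIP. None of the 5 longest regions passed the test, with log2 changes from -0.05 to 0.07. The most enriched, Chr7:1502401-1503600, had 3.13 and 3.96 in oschz1 and 4.12 and 5.88 in NIP over the same 1200 bp in all 4 libraries (log2 reads -0.26, SE 0.06, edgeR adjusted p = 0.00455 with the recovered size, but 0.284 in the comparison of all regions).

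The outermost regions were the nearest to each end with a peak in all 4 H2A.Z libraries, and at some ends a peak of fewer libraries lay further out. At the start of chromosome 6, for example, the outermost peak began at 50000 and 34200 bp in oschz1 and at 50200 and 131200 bp in NIP, whereas the region in all 4 libraries was centred at 139100 bp. Of these 19 regions none passed the test, with log2 changes from -0.86 at Chr6:31225801-31226400 to 0.21 at Chr5:33401-35600. The largest of them by reads was Chr4:35499001-35502000, at the very end of chromosome 4, with 2663 and 2381 reads in oschz1 and 3055 and 2325 in NIP. Its enrichment was 2.30 and 2.35 in oschz1, against 2.73 and 2.62 in NIP, over 3000 and 2800 bp in oschz1 and 2800 and 2800 bp in NIP. Chr11:29011401-29014800 was the most enriched of the outermost regions with at least 50 input reads, at 2.77 and 3.14 in oschz1 and 3.42 and 3.56 in NIP. At both of these the genotypes did not overlap in enrichment, and in reads neither passed the test (edgeR adjusted p = 0.478 and 0.974).

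Distal H3 regions had lower ChIP over input than distal H2A.Z regions, but ratios from different antibodies are not comparable as strength. The most enriched distal H3 region with at least 50 input reads was Chr1:42757401-42758800, with 2.01 and 2.78 in oschz1 and 1.60 and 2.28 in NIP. It was followed by Chr7:29551201-29553000, with 2.53 and 2.29 in oschz1 and 1.96 and 1.84 in NIP. None of the 5 most enriched H3 regions passed the test, with log2 changes from 0.01 to 0.21. The middle 50% of the 2242 distal H3 regions lay between 1.41 and 1.74, against 1.82 and 2.51 for H2A.Z. For H3 regions in the rest it lay between 1.43 and 1.78.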

How the data were processed

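The titles of the samples gave genotype, antibody and replicate number. The authors mapped the reads with Bowtie2 to the MSU rice genome, removed reads of mapping quality under 20 and potential PCR duplicates with SAMtools, and called H2A.Z peaks in each library against input with SICER (windows of 200 bp, false discovery rate 0.05). For H3 the caller is not given in the study's methods, but its deposited tables are laid out alike. The deposited tables give for each peak the count of ChIP and of input reads and, from the authors' caller, a p-value with its q-value and a fold enrichment over the input. Counts are not normalised, and the deposited fold ratio is ChIP over input reads divided by a constant of the library, which was recovered from the table. The depth outside peaks is not in the counts.

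Peaks that overlapped or touched were merged per antibody over 4 libraries. Density, mean width and covered share used all peaks of a library, and enrichment was taken over regions that all 4 libraries shared. Genotypes were set against each other by exact permutation tests of 2 against 2 libraries (two-sided), locations by exact two-sided sign-flip tests over 4 libraries, and reads per region by edgeR 4.0.16 in R 4.3.3 over all regions with a peak in all 4 libraries, with reads in peaks as library size, no scaling factors and adjusted p-values of at most 0.05. The other 169 windows were the complete 2 Mb windows outside the ends.

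Named regions were the 5 largest rises and falls past the threshold in which the genotypes did not overlap, the H2A.Z region nearest to each end, the 5 longest, the 5 most enriched H2A.Z and H3 regions with at least 50 input reads, and the 5 largest rises and falls in enrichment among regions of the same extent with at least 50 reads, of which the text gives a part. The members, lists and tests were chosen with earlier results of these data known. Alternatives were windows of 1 and 3 Mb, the adjoining 2 to 4 Mb, the rest without the 5 left-out starts, q of at most 1e-10, a fold of at least 2, peaks less than 600 bp apart joined, medians, other region sets, TMM factors, the recovered library size, DESeq2 1.42.0, limma 3.58.1 on log2 enrichment (pseudocount 0.5), the replicate number as a block, and leaving out each library.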

Additional observations from a re-analysis of the deposited data

Results flagged for a closer look

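The share of sequence covered by H3 peaks was compared between distal ends and the adjoining 2 to 4 Mb. It was lower at the ends in both oschz1 libraries, at 0.976-fold and 0.973-fold, and higher in both NIP libraries, at 1.01-fold and 1.01-fold, so that every library of 1 genotype went one way and every library of the other the opposite way. The difference between the genotypes was -0.05 on the log2 scale (exact two-sided permutation p = 0.333, the smallest that 2 against 2 libraries allow). This comparison was picked because the genotypes differed in direction. Its p-value was thus fixed by the choice and does not test the difference.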

How the results depend on the processing

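Lower enrichment, larger mean width and a lower ratio to H3 in oschz1 kept their direction for distal H2A.Z under every alternative run, except that the median width did not differ (0 bp), as for H3 (0 bp in oschz1 against NIP and 0 on the log2 scale for distal against rest), and that the ratio to H3 shrank to -0.00736 with a fold of at least 2 (exact permutation p = 1). Against the adjoining 2 to 4 Mb, log2 H2A.Z density turned to -0.0297, log2 H3 width to 0.0448 and log2 input per kb to 0.0230. The genotype effect on H2A.Z enrichment at distal ends minus the rest turned to -0.000925 (1 Mb windows), -0.00103 (q of at most 1e-10), -0.00894 (fold of at least 2), -0.00127 (adjoining stretch) and -0.00131 (same extent), and that on H3 to -0.00227 (1 Mb) and -0.00713 (adjoining). H3 enrichment in oschz1 minus NIP turned to -0.00374 (1 Mb) and -0.000967 (same extent). With a fold of at least 2, oschz1 minus NIP turned to -1.04 percentage points for H2A.Z coverage, 2.63 peaks per Mb, 37.3 bp and 0.228 percentage points for H3, and 0.503 percentage points for H2A.Z bases under H3 peaks, and log2 H3 enrichment of ends against rest turned to 0.12. With q of at most 1e-10 the last was 0.0410, and H3 density differed by 1.95 peaks per Mb. The fold filter used each library's own ChIP over input, and the causes of these turns were not tested.

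Leaving out 1 library gave -5.09 to 0.566 peaks per Mb for H2A.Z, and for H3 -9.79 to 1.08 peaks per Mb, -25.1 to 1.36 bp, -1.22 to 0.0437 percentage points and -0.0120 to 0.0248 in enrichment. It gave 1 to 6 distal H2A.Z regions lower and 19 to 58 higher in oschz1.

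Counts of distal H2A.Z regions lower and higher moved most. Counts over all tested regions are given in brackets. Lower were 2 with TMM factors (22 of 38145), 0 with a peak in at least 2 libraries (0 of 48071) and 0 by limma on enrichment (0 of 38145). With 80% of the region shared 57 were lower (468 of 17222) and with the same extent 36 (284 of 7107). With the recovered library size added to it 105 were lower (867 of 7107), and by DESeq2 13 (118 of 38145). Higher were 23 with the recovered library size (203 of 38145), 0 with a peak in at least 2 libraries (0 of 48071) and 0 by limma (0 of 38145). With 80% shared 20 were higher (121 of 17222) and with the same extent 5 (25 of 7107). With the recovered size added 3 were higher (21 of 7107), and by DESeq2 106 (710 of 38145). For H3, lower were 3 with the same extent and recovered size (27 of 4236) and 6 by DESeq2 (76 of 25169). H3 regions higher were 4 with 80% shared (61 of 8278) and 2 with the same extent (34 of 4236). With the recovered size added 5 were higher (44 of 4236), and by DESeq2 10 (98 of 25169). In limma on enrichment, 3 named regions turned, Chr2:35497201-35501400 to -0.0260, Chr7:1666001-1668200 to -0.23 and Chr4:34612401-34614400 to 0.22 on the log2 scale.

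The replicate block gave 1 distal region lower and 27 higher for H2A.Z (15 and 216 of all 38145). Per region, with reads scaled to the reads in peaks, same-numbered libraries of the genotypes did not deviate together. The correlations were -0.0118 for H2A.Z and -0.000647 for H3, and the numbers were not taken as a pairing of genotypes. Reads in peaks, however, were lower in replicate 2 than in replicate 1 for each antibody and genotype. H2A.Z and H3 libraries of the same number, which shared an input, were set together for the ratio to H3 and the overlap. A distal H2A.Z region had a median of 76 input reads and a distal H3 region 63, and there were 2 libraries a genotype. The part of depth in the number of calls was not tested.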
